A study of Homo sapiens with 4 samples.

Results

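The genes described here are 48 protein-coding genes whose transcript level fell to at most 20% of the control level when UBXN1 was knocked down in MHCC97H cells, an established human hepatocellular carcinoma line. RNA was sequenced from 2 libraries of cells with a control short hairpin RNA (shCon, genotype given as control) and 2 libraries of cells with a short hairpin RNA against UBXN1 (shUBXN1). No other treatment or time is given in the labels, and which UBXN1 hairpin was used is not given there either, so loss of UBXN1 and any other action of that hairpin cannot be told apart. A member had a CPM of at least 2 in both shCon libraries (the deposited count divided by the library total, on the usual CPM scale) and a mean shUBXN1 CPM of at most 20% of the mean shCon CPM, and genes with symbols starting with ZNF, H1-, H2, H3 or H4 were left out. These limits held for 48 of 11152 expressed protein-coding genes, which is 0.430%, and the whole table lists 61541 genes. Since the fall itself chose the members, their levels in the 4 libraries are a description and carry no test.

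UBXN1 is a ubiquitin-binding adaptor of the AAA ATPase p97 (VCP), which unfolds ubiquitinated proteins for degradation or recycling. The members code for very different proteins: extracellular matrix and adhesion proteins, plasma proteins that liver cells secrete, transporters, metabolic enzymes, signalling proteins and transcription factors. Hepatocytes make most plasma proteins, among them fibrinogen and complement regulators, and liver cancer cells often keep a part of that programme. Versican and tenascin C are large matrix proteins that are rare in quiescent liver and common in scarred or tumorous tissue, while cancer-testis antigens are normally made in germ cells and reappear in tumours.

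Library totals ran from 23373700 to 27380508 counts. UBXN1 (chr11:62676498-62679117, minus strand) itself was at 65.3 and 74.8 CPM in shCon and 17.8 and 18.5 CPM in shUBXN1, a log2 fold change of -2.03 (SE 0.0963, adjusted p = 9.98e-10) by the quasi-likelihood test of edgeR, with p-values here and below adjusted by Benjamini-Hochberg over the 16863 genes tested. The groups did not overlap, so the labels held for the targeted gene. The mitochondrial genome took 5.28% and 5.59% of the counts of the shCon libraries, as against 7.43% and 8.27% for shUBXN1, and the part of this in the levels of the members was not tested. Of the markers of the labelled cell type, HNF4A was at 56.3 and 59.7 CPM in shCon and 49.5 and 50.4 CPM in shUBXN1, ALB at 17.5 and 16.6 CPM in shCon and 4.44 and 4.79 CPM in shUBXN1, and APOA1 was under 1 CPM in every library. SERPINA1 was at 8.0 and 8.72 CPM in shCon and 11.5 and 11.8 CPM in shUBXN1, while TTR and APOB kept 12.3% and 29.4% of control. The 6 hepatocyte markers summed to 99.9 and 99.1 CPM in shCon and to 70.4 and 71.7 CPM in shUBXN1. Of the markers of other cells, PDGFRA, CD3E and CFTR had 0 counts in every library, while the 4 endothelial markers summed to 47.2 and 48.3 CPM in shCon and to 97.8 and 99.6 CPM in shUBXN1. Most of that rise was KDR, at 14.2 and 15.3 CPM in shCon and 50.9 and 56.6 CPM in shUBXN1. CDH5 went the other way, with 3 and 6 counts in shCon and 0 and 0 in shUBXN1. The 6 stellate cell and fibroblast markers summed to 32.1 and 32.6 CPM against 17.8 and 19.6 CPM, most of it LUM, while COL1A1 was higher (log2 fold change 3.11 (SE 0.468, adjusted p = 5.83e-05)). The 5 leukocyte markers summed to between 88.9 and 101 CPM, most of it CD68, while CD79A was higher (1.21 (SE 0.135, adjusted p = 3.39e-06)). The 5 cholangiocyte markers summed to 366 and 361 CPM against 261 and 269 CPM, with KRT19 lower (-1.24 (SE 0.0796, adjusted p = 1.51e-08)) and KRT7 higher (1.15 (SE 0.076, adjusted p = 2.09e-08)). Their part in the results was not tested. In bulk RNA, fewer cells that express a gene and less of its RNA per cell cannot be told apart.

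The 48 members together held 0.273% and 0.281% of all counts in shCon and 0.0348% and 0.0350% in shUBXN1. Their summed level was 2733 and 2810 CPM in shCon against 348 and 350.1 CPM in shUBXN1, with TMSB10 alone giving 25.9% and 26.5% of the sum in shCon. The share of the control level that was left ran from 0.487% (TNS4) to 19.8% (STRADB), with a median of 12.8%, while the median over all 11152 expressed protein-coding genes was 100.3%. At most 5% was left for 7 members, and at most 10% for 16. Most members were not abundant to begin with. Their median shCon level was 13.5 CPM against 34.9 CPM for the other expressed genes, 13 were under 5 CPM, and 6 were at 100 CPM or more.

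**Figure D1:**
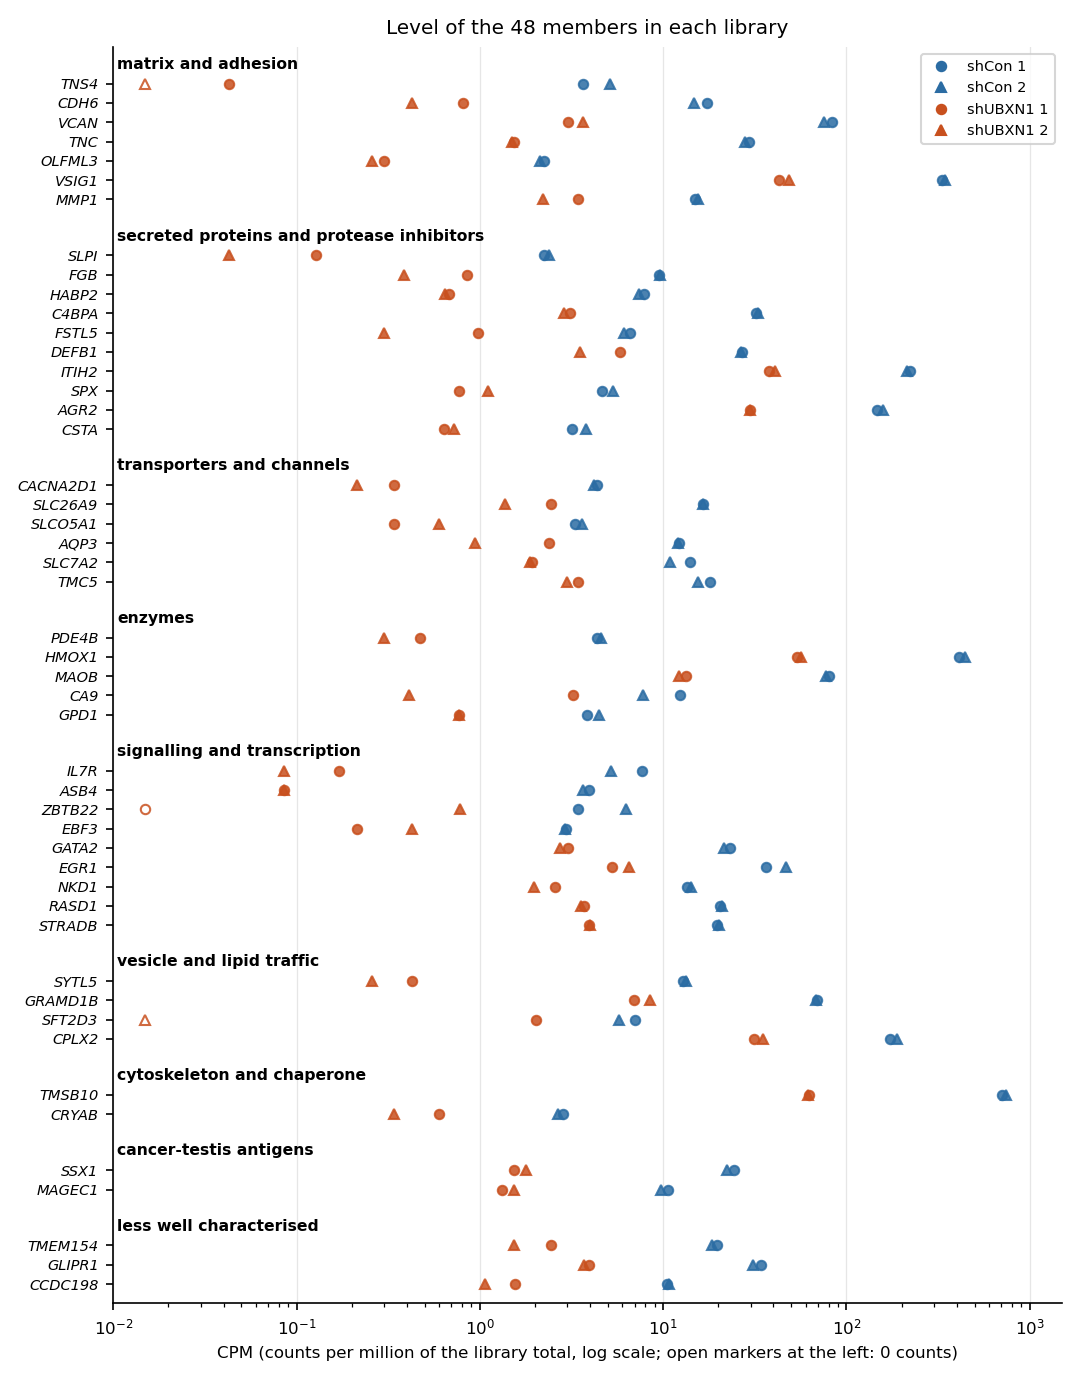
Level of each of the 48 members in CPM (log axis) in the 2 shCon libraries (blue) and the 2 shUBXN1 libraries (orange), grouped by what the protein does. Circles are replicate 1 and triangles replicate 2, and open markers at the left edge stand for 0 counts. In every row both blue markers lie to the right of both orange ones.

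No member had overlapping groups, as the rule made nearly certain, and of all protein-coding genes tested 36.8% had both shCon libraries above both shUBXN1 libraries. The lower shCon library lay at least 2.4-fold above the higher shUBXN1 library (CA9), and for 35 of the 48 members that distance was 5-fold or more. All 48 passed the filter on low counts, which a gene with such a control level does through shCon alone, and all were called lower (fold change of at least 2 and p under 0.05), which the rule fixed almost as fully. For comparison, 6.09% of all genes tested and 5.77% of the protein-coding genes tested were called lower, and 11.8% and 10.6% were called higher. Of the expressed protein-coding genes, 39 rose 5-fold or more, a count that leaves out rises from under 2 CPM in shCon.

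**Figure D2:**
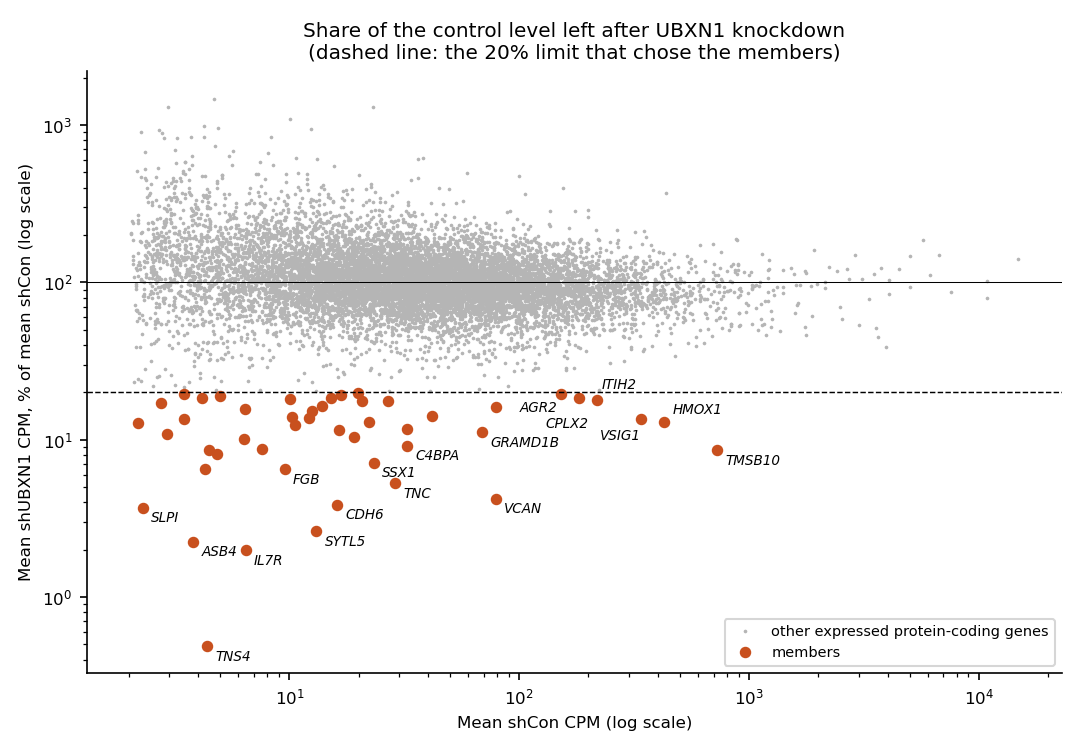
Mean shUBXN1 CPM as a percentage of mean shCon CPM (vertical, log axis) against mean shCon CPM (horizontal, log axis) for the 48 members (orange) and the other expressed protein-coding genes (grey). The dashed line marks the 20% limit that chose the members. TMSB10, HMOX1 and VSIG1 are the members with the highest control CPM, and TNS4 lies lowest with 0.487% left.

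The 2 libraries of a group differed little for most members. The median coefficient of variation was 0.046 in shCon and 0.145 in shUBXN1, where the counts were lower. In shUBXN1 the libraries differed more than 2-fold for 9 members. The widest gap among members with counts in both was that of CA9, at 12.3 and 7.77 CPM in shCon and 3.24 and 0.412 CPM in shUBXN1. SFT2D3 and ZBTB22 were each at 0 in 1 shUBXN1 library and at 2.02 and 0.780 CPM in the other. For CA9, SFT2D3 and ZBTB22 the deposited counts were not whole numbers in most libraries.

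The matrix and adhesion members were VCAN, TNC, TNS4, CDH6, MMP1, OLFML3 and VSIG1, and their levels summed to 485 CPM in shCon and 54.3 CPM in shUBXN1. VCAN (ENSG00000038427, chr5:83471618-83582303, plus strand) codes for versican, a large chondroitin sulfate proteoglycan that binds hyaluronan, and was at 83.4 and 75 CPM in shCon and 3.04 and 3.64 CPM in shUBXN1. TNC (ENSG00000041982, chr9:115019575-115118207, minus strand), which codes for the matricellular glycoprotein tenascin C, was at 29.5 and 27.9 CPM in shCon and 1.54 and 1.5 CPM in shUBXN1. Of control, 4.22% of VCAN and 5.28% of TNC were left, and in both genes the shUBXN1 libraries lay far below either shCon library. TNS4 (ENSG00000131746, chr17:40475828-40501623, minus strand) codes for tensin 4, a focal adhesion protein, and had 100 and 124 counts in the shCon libraries but 1 and 0 in the shUBXN1 libraries. On the summed counts 0.493% of control was left, with an exact 95% interval of 0.0124% to 2.77% that covers counting error only. CDH6, a type II cadherin, was at 17.4 and 14.8 CPM in shCon and 0.813 and 0.428 CPM in shUBXN1. Of the exon bases of CDH6, 8.91% are shared on the same strand, and its deposited counts are whole in only 1 of 4 libraries. VSIG1, a junctional protein of the immunoglobulin superfamily best known from gastric epithelium, was the most abundant of the 7 by CPM and stood at 334 and 345 CPM in shCon and 43 and 48.4 CPM in shUBXN1. VSIG1 had little spread within either group, and 13.5% was left, but its deposited counts are whole in only 1 of 4 libraries. The collagenase MMP1 kept 18.5% and the secreted glycoprotein OLFML3 12.7%.

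The group of secreted proteins and protease inhibitors included plasma proteins of the liver. FGB (ENSG00000171564, chr4:154563011-154572807, plus strand), the beta chain of fibrinogen, was at 9.46 and 9.63 CPM in shCon and 0.853 and 0.385 CPM in shUBXN1. C4BPA, the alpha chain of the complement inhibitor C4b-binding protein, was at 32.3 and 33 CPM in shCon and 3.12 and 2.87 CPM in shUBXN1. ITIH2, a heavy chain of inter-alpha-trypsin inhibitor that becomes linked to hyaluronan in the matrix, was at 222 and 214 CPM in shCon and 37.6 and 40.6 CPM in shUBXN1. All 3 were several-fold lower in both knockdown libraries, and 6.49%, 9.17% and 17.9% of control were left. HABP2, a hyaluronan-binding plasma serine protease, was at 7.85 and 7.36 CPM in shCon and 0.683 and 0.642 CPM in shUBXN1, but 10.2% of its exon bases also lie in NRAP on the other strand.

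Protease inhibitors and mucosal proteins made up most of the rest of that group. SLPI, an inhibitor of leukocyte elastase, had 61 and 58 counts in the shCon libraries but 3 and 1 in the shUBXN1 libraries, so that 3.71% of control was left on the summed counts (exact 95% interval 0.995% to 9.76%, counting error only). DEFB1, an antimicrobial beta-defensin, was at 27 and 26.5 CPM in shCon and 5.85 and 3.51 CPM in shUBXN1. Of the exon bases of DEFB1, 12.5% are shared with GS1-24F4.2 on the other strand. AGR2, a disulfide isomerase of the endoplasmic reticulum that mucin-making cells need, was at 146 and 159 CPM in shCon and 29.9 and 29.8 CPM in shUBXN1. In AGR2 the shUBXN1 libraries were almost equal and 19.6% was left, which put it just inside the limit. The cysteine protease inhibitor CSTA, the peptide hormone SPX and the follistatin-like FSTL5 were at most at 7 CPM in shCon and kept between 10.1% and 19.6%. Of the exon bases of FSTL5, 11.6% are shared with a gene on the other strand.

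Among transporters and channels, SLC26A9, a chloride transporter and channel of epithelia, was at 16.5 and 16.4 CPM in shCon and 2.43 and 1.37 CPM in shUBXN1. AQP3, a water and glycerol channel, was at 12.2 and 12 CPM in shCon and 2.39 and 0.941 CPM in shUBXN1. CACNA2D1, an auxiliary subunit of voltage-gated calcium channels, was at 4.35 and 4.2 CPM in shCon and 0.341 and 0.214 CPM in shUBXN1 and kept the smallest share of the 6, 6.5%. The cationic amino acid transporter SLC7A2, the organic anion transporter family member SLCO5A1 and TMC5 kept 15.2%, 13.5% and 19.1%. Of the exon bases of TMC5, 10.6% are shared on the other strand. In all 6 genes the lowest shCon library was above the highest shUBXN1 library, by 4.56-fold in TMC5 and by 12.3-fold in CACNA2D1.

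Of the 5 enzymes, HMOX1 (ENSG00000100292, chr22:35380361-35394214, plus strand), which breaks down haem to biliverdin, iron and carbon monoxide, was at 413 and 441 CPM in shCon and 53.6 and 56.6 CPM in shUBXN1. MAOB, the mitochondrial monoamine oxidase B, was at 80.1 and 77.8 CPM in shCon and 13.4 and 12.2 CPM in shUBXN1. Both were abundant and even between replicates, and 12.9% and 16.2% of control were left. PDE4B, which hydrolyses cyclic AMP, was at 4.38 and 4.57 CPM in shCon and 0.469 and 0.299 CPM in shUBXN1, and GPD1, the cytosolic glycerol-3-phosphate dehydrogenase, was at 3.83 and 4.48 CPM in shCon and 0.768 and 0.77 CPM in shUBXN1. CA9, a cell surface carbonic anhydrase known as a hypoxia marker, was uneven, as given above, and 35.7% of its exon bases are shared with ARHGEF39 on the other strand.

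Signalling proteins and transcription factors formed a group of 9. IL7R (ENSG00000168685, chr5:35852695-35879603, plus strand), the alpha chain of the interleukin-7 receptor, was at 7.71 and 5.18 CPM in shCon and 0.171 and 0.0856 CPM in shUBXN1. ASB4, a SOCS box protein of ubiquitin ligases, was at 3.94 and 3.66 CPM in shCon and 0.0853 and 0.0856 CPM in shUBXN1, that is 108 and 89 counts against 2 and 2 counts. For ASB4 2.24% of control was left on the summed counts (exact 95% interval 0.605% to 5.83%, counting error only), and for IL7R 1.99%. The transcription factors EGR1, an immediate-early gene of growth factor signalling, and GATA2, best known from blood and endothelial cells, were better measured.
EGR1 was at 36.3 and 47.1 CPM in shCon and 5.25 and 6.55 CPM in shUBXN1, and GATA2 at 23.2 and 21.4 CPM in shCon and 3.03 and 2.74 CPM in shUBXN1. NKD1, a Dishevelled-binding feedback inhibitor of Wnt signalling, was at 13.5 and 14.1 CPM in shCon and 2.56 and 1.97 CPM in shUBXN1. RASD1, a Ras-like protein induced by glucocorticoids, was at 20.5 and 20.9 CPM in shCon and 3.71 and 3.55 CPM in shUBXN1. These 4 genes kept 14.1%, 13%, 16.4% and 17.6%, with no overlap between groups. The transcription factor EBF3 kept 10.9% from a control level near 3 CPM, and the zinc finger gene ZBTB22 kept 8.05%. STRADB, a pseudokinase partner of LKB1, was at 19.7 and 20.1 CPM in shCon and 3.93 and 3.98 CPM in shUBXN1 and was the member nearest to the limit.

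Vesicle and lipid traffic was represented by SYTL5, GRAMD1B, CPLX2 and SFT2D3. SYTL5 (ENSG00000147041, chrX:38006553-38128819, plus strand), a synaptotagmin-like effector of RAB27 in exocytosis, was at 12.9 and 13.3 CPM in shCon and 0.427 and 0.257 CPM in shUBXN1. GRAMD1B, which moves cholesterol from the plasma membrane to the endoplasmic reticulum, was at 69.5 and 68.3 CPM in shCon and 6.96 and 8.43 CPM in shUBXN1. CPLX2, a complexin that binds SNARE complexes, was at 173 and 189 CPM in shCon and 31.3 and 35 CPM in shUBXN1. Each of these 3 was lower in both knockdown libraries than in either control, with 2.61%, 11.2% and 18.3% left. SFT2D3 lies wholly within WDR33 on the other strand (100% of its exon bases), so its 15.7% is uncertain.

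TMSB10 (ENSG00000034510, chr2:84905656-84906671, plus strand) codes for thymosin beta 10, a small protein that binds actin monomers, and was the most abundant member on both scales. It was at 708 and 746 CPM in shCon and 62.3 and 61.7 CPM in shUBXN1. Per length, its mean level was 3259 TPM (counts divided by gene length and scaled to one total) in shCon and 273 TPM in shUBXN1, ahead of HMOX1 (568 and 72 TPM) and AGR2 (403 and 77.5 TPM). Of TMSB10 8.53% was left, with knockdown libraries that differed by less than 1 CPM. The small heat shock protein CRYAB was at 2.85 and 2.67 CPM in shCon and 0.597 and 0.342 CPM in shUBXN1, and 13.6% of its exon bases are shared with HSPB2 on the other strand.

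Both cancer-testis members lie on the X chromosome. SSX1 was at 24.4 and 22.2 CPM in shCon and 1.54 and 1.8 CPM in shUBXN1, and MAGEC1 at 10.7 and 9.79 CPM in shCon and 1.32 and 1.54 CPM in shUBXN1. Counts of SSX1 are uncertain because the SSX genes are near-identical copies and its deposited counts are whole in only 2 of 4 libraries. Less is known of TMEM154, CCDC198 and GLIPR1, which kept 10.4%, 12.4% and 11.7%. GLIPR1 was at 34.1 and 30.9 CPM in shCon and 3.93 and 3.69 CPM in shUBXN1, but 24.4% of its exon bases are shared with KRR1 on the other strand.

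Relatives of the members moved in both directions. Genes with the same symbol stem as a member (at least 3 letters, families of at most 60 genes) numbered 146 tested protein-coding genes around 30 members. Many of them were ZBTB genes around ZBTB22 alone, and a shared stem, as in SSX2IP, need not mean a shared family. Of the 146 genes, 16 (11%) were called lower, beside 5.77% of all protein-coding genes tested, and 26 (17.8%) were called higher, beside 10.6%. Their median log2 fold change was 0.15, against -3.04 for the members and -0.02 for all protein-coding genes tested.

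**Figure D3:**
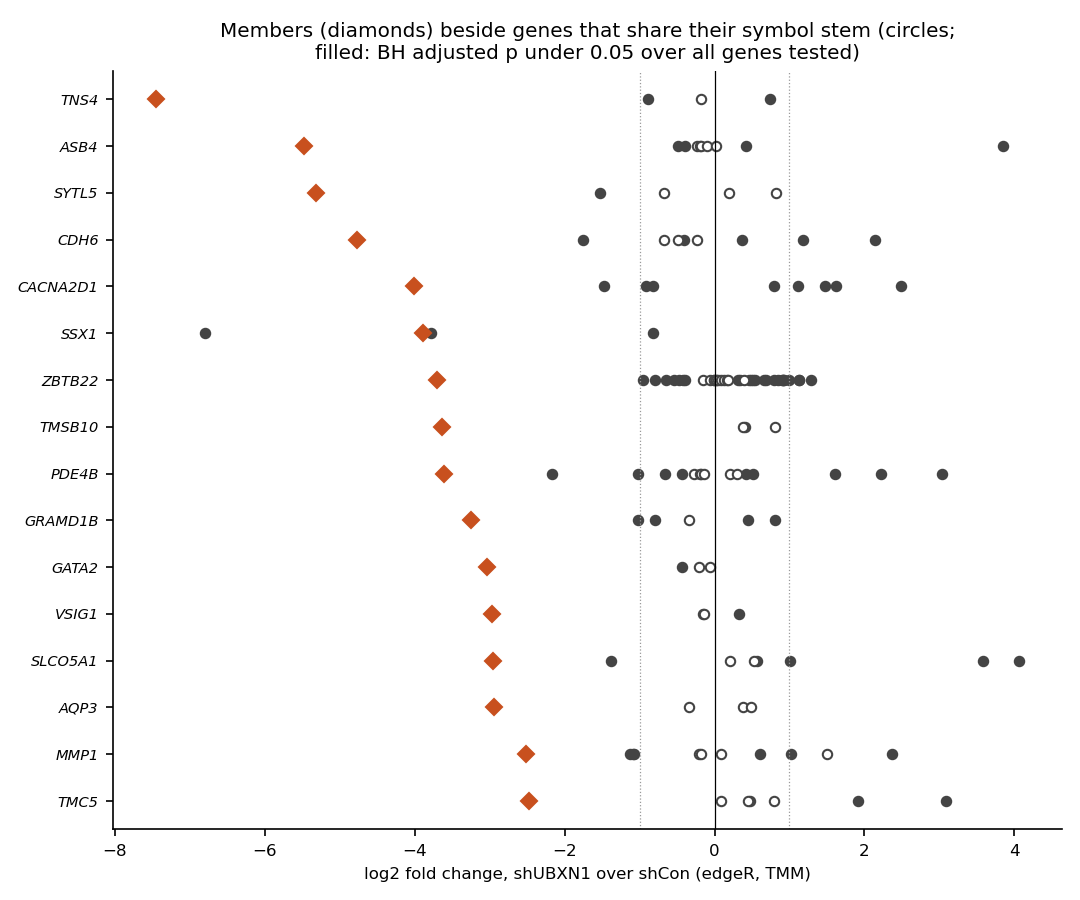
Log2 fold change (shUBXN1 over shCon, horizontal) of members with at least 3 tested relatives (orange diamonds) and of the genes that share their symbol stem (circles, filled where the adjusted p is under 0.05). Apart from the SSX row, each diamond lies to the left of all circles in its row.

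The relatives that fell furthest were SSX genes. SSX5 had a log2 fold change of -6.80 (SE 1.28, adjusted p = 5.11e-04) and SSX7 of -3.78 (SE 0.669, adjusted p = 2.46e-04), both from under 1.5 CPM in shCon and subject to the same uncertainty of near-identical copies. MAGEC2 was lower by less than MAGEC1, at -1.03 (SE 0.156, adjusted p = 6.27e-05). Relatives of the vesicle and lipid traffic members moved both ways. SYTL2 was at 97.7 and 91.8 CPM in shCon and 35.4 and 34.2 CPM in shUBXN1, a log2 fold change of -1.53 (SE 0.0774, adjusted p = 1.80e-09), SFT2D2 had one of -1.48 (SE 0.0756, adjusted p = 1.95e-09), CPLX1 of -1.38 (SE 0.206, adjusted p = 5.60e-05) and GRAMD1A of -1.02 (SE 0.0806, adjusted p = 1.08e-07). None of these fell as far as its relative in the set, and GRAMD2B rose (0.80 (SE 0.127, adjusted p = 9.14e-05)).

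Other relatives moved up where the member fell. RASD2 rose from 0.219 and 0.165 CPM in shCon to 3.37 and 1.93 in shUBXN1, a log2 fold change of 3.65 (SE 0.497, adjusted p = 2.33e-05). EGR3 had a log2 fold change of 2.53 (SE 0.611, adjusted p = 0.0028), EBF4 of 2.11 (SE 0.163, adjusted p = 8.88e-08), NKD2 of 1.77 (SE 0.259, adjusted p = 4.43e-05) and GLIPR2 of 2.07 (SE 0.344, adjusted p = 1.46e-04). NKD1 and NKD2, both Dishevelled-binding proteins, thus moved in opposite directions, as did EBF3 and EBF4. In the phosphodiesterases, PDE3A fell with PDE4B (log2 fold change -2.17 (SE 0.316, adjusted p = 4.37e-05)) while PDE4C rose (3.04 (SE 0.57, adjusted p = 4.04e-04)) from under 0.2 CPM. Among calcium channel subunits, CACNA2D2 rose (2.48 (SE 0.538, adjusted p = 0.0013)) and CACNA1D fell (-1.47 (SE 0.326, adjusted p = 0.0015)). In the organic anion transporters, SLCO2A1 rose from 0.292 and 0.658 CPM in shCon to 7.94 and 8.73 in shUBXN1, a log2 fold change of 4.06 (SE 0.322, adjusted p = 1.15e-07), and SLCO2B1 fell (-1.38 (SE 0.119, adjusted p = 2.56e-07)). TMC4 rose too (3.09 (SE 0.512, adjusted p = 1.39e-04)), from 0.183 and 0.206 CPM.

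Some relatives, and MAOA beside MAOB on the chromosome, changed by less than 2-fold. TMSB4X, the other abundant thymosin, had a log2 fold change of 0.41 (SE 0.0775, adjusted p = 4.75e-04), while TMSB10 had one of -3.64 (SE 0.0862). HMOX2, the constitutive haem oxygenase, had -0.34 (SE 0.0919, adjusted p = 0.0058) beside -3.04 (SE 0.0869) for HMOX1, and MAOA had -0.45 (SE 0.0797, adjusted p = 2.51e-04) beside -2.71 (SE 0.0865) for MAOB. The cadherins split: CDH17, an intestinal and liver cancer cadherin at 294 and 276 CPM in shCon and 90.6 and 89.1 CPM in shUBXN1, had -1.75 (SE 0.0759, adjusted p = 4.30e-10), whereas CDH1 (E-cadherin) at 14 and 14.1 CPM in shCon and 34.1 and 33.2 CPM in shUBXN1 had 1.18 (SE 0.0977, adjusted p = 1.83e-07) and CDH2 (N-cadherin) 0.36 (SE 0.0755, adjusted p = 9.80e-04). Of the matrix metalloproteinases, MMP2 and MMP7 fell by much less than MMP1, with -1.13 (SE 0.187, adjusted p = 1.42e-04) and -1.09 (SE 0.0743, adjusted p = 2.90e-08), and MMP25 rose (2.36 (SE 0.489, adjusted p = 8.90e-04)).

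Of 25 gene lists on liver, matrix, adhesion and signalling, 7 held a member, 9 memberships in all. Over all 25 lists, 514 other genes were tested, of which 67 (13.0%) were called lower and 122 (23.7%) higher. Of all protein-coding genes tested, 5.77% and 10.6% were. The lists were chosen with earlier results of these data known, so these shares are a description.

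**Figure D4:**
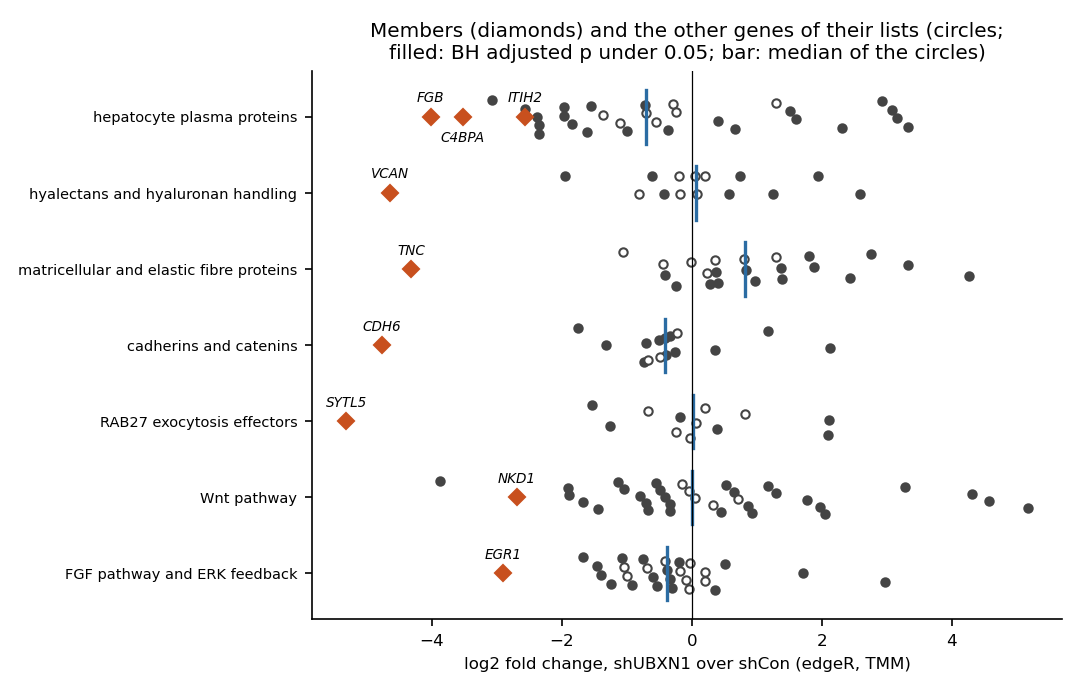
Log2 fold change of the members on 7 gene lists (orange diamonds, named) and of the other tested genes of those lists (circles, filled where the adjusted p is under 0.05). Blue bars give the median of the circles, from -0.71 for hepatocyte plasma proteins to 0.81 for matricellular and elastic fibre proteins.

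Hepatocyte plasma proteins, the list of FGB, C4BPA and ITIH2, had 29 other tested genes, of which 11 were called lower and 8 higher, with a median log2 fold change of -0.71 against 0.02 over all genes tested. The other fibrinogen chains were lower with FGB. FGA, whose gene ends 10319 bases beyond FGB on the other strand, was at 6.76 and 8.11 CPM in shCon and 1.71 and 1.37 CPM in shUBXN1, a log2 fold change of -2.35 (SE 0.241, adjusted p = 1.44e-06), and FGG had one of -2.57 (SE 0.599, adjusted p = 0.0022). Transferrin (TF) had -1.96 (SE 0.085, adjusted p = 4.30e-10), albumin (ALB) -1.97 (SE 0.144, adjusted p = 5.49e-08) and transthyretin (TTR) -3.08 (SE 0.545, adjusted p = 2.49e-04), the largest fall. In the other direction, APOE was at 12.9 and 11.8 CPM in shCon and 125 and 109.8 CPM in shUBXN1, a log2 fold change of 3.16 (SE 0.0891, adjusted p = 1.20e-11), SERPINA3 had 3.08 (SE 0.154, adjusted p = 1.61e-09) and vitronectin (VTN) 3.33 (SE 0.51, adjusted p = 6.83e-05), the largest rise. The list therefore did not move one way. Of 23 tested hepatocyte transcription factors, none a member, 4 were called lower and 1 higher (median log2 fold change -0.30). CEBPA was the lowest of those passing adjusted p, at -1.60 (SE 0.0959, adjusted p = 7.69e-09).

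Versican's list of hyalectans and hyaluronan genes had 14 other tested genes, with 1 called lower and 3 higher and a median of 0.07. CEMIP, which breaks down hyaluronan, was the gene called lower (-1.94 (SE 0.0781, adjusted p = 2.09e-10)), and HAPLN3, a link protein, rose most (2.59 (SE 0.141, adjusted p = 3.25e-09)). CD44, the main hyaluronan receptor, moved by -0.42 (SE 0.077, adjusted p = 3.19e-04). Tenascin C's list of matricellular and elastic fibre proteins had 22 others, of which 0 were called lower and 8 higher, with a median of 0.81. By the adjusted p alone 2 of the 22 were lower and 13 higher. FBLN2 rose most (4.27 (SE 0.526, adjusted p = 9.01e-06)) from under 0.2 CPM, and FN1, fibronectin, had -0.41 (SE 0.105, adjusted p = 0.0041). The called genes of its list thus moved in the direction opposite to TNC.

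CDH6's list of cadherins and catenins had 15 others, 2 called lower and 2 higher, with a median of -0.41. Besides CDH17, the gene called lower was PKP2, a desmosomal plakophilin (-1.33 (SE 0.109, adjusted p = 1.72e-07)). SYTL5's list of RAB27 effectors had 12 others, again 2 lower and 2 higher. RAB27B was lower (-1.25 (SE 0.0934, adjusted p = 6.50e-08)), as was SYTL2, while UNC13D, which primes vesicles for fusion, was higher (2.11 (SE 0.0772, adjusted p = 9.51e-11)).

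NKD1's list, the Wnt pathway, had 34 others, 7 called lower and 9 higher, with a median of 0.00. The genes called lower included feedback genes that, like NKD1, are known targets of the pathway: AXIN2 (-1.44 (SE 0.076, adjusted p = 2.49e-09)), RNF43 (-1.67 (SE 0.108, adjusted p = 1.78e-08)), NOTUM (-1.91 (SE 0.399, adjusted p = 9.56e-04)) and LGR5 (-3.87 (SE 0.74, adjusted p = 4.74e-04)), the last from under 1.5 CPM. The inhibitor DKK1 was at 165 and 154 CPM in shCon and 46.6 and 44.1 CPM in shUBXN1, a log2 fold change of -1.90 (SE 0.0762, adjusted p = 2.09e-10). Ligands were among the rises, with WNT7B at 1.97 (SE 0.0961, adjusted p = 1.28e-09) and WNT11 at 5.18 (SE 0.915, adjusted p = 2.44e-04), the latter from 1 and 0 counts. SP5, another known target, rose as well (4.32 (SE 0.755, adjusted p = 2.24e-04)) from under 0.1 CPM. EGR1's list, the FGF pathway with ERK feedback genes, had 27 others, 5 lower and 2 higher (median -0.39). FOS, an immediate-early gene like EGR1, was lowest (-1.67 (SE 0.226, adjusted p = 2.17e-05)), and SPRED3 rose most (2.98 (SE 0.139, adjusted p = 8.30e-10)). DUSP6, a phosphatase that ERK induces, was at 126 and 129.5 CPM in shCon and 134 and 131 CPM in shUBXN1, and the log2 fold change of DUSP6 was -0.03 (SE 0.0717, adjusted p = 0.739), but above 0 with total count scaling (0.054) and with limma on log2(TPM + 1) (0.028).

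The other 18 lists held no member. Among them the fibrillar and network collagens with their enzymes had 1 called lower and 11 higher of 32, integrins and laminins 1 and 9 of 28, and YAP and TEAD targets 0 and 6 of 28 (by the adjusted p alone, 5 lower and 16 higher). Epithelial markers had 4 and 4 of 18, genes of drug and bile acid metabolism 11 and 12 of 47, and TGF-beta and BMP genes 3 and 8 of 40.

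On the chromosomes the members were scattered. They lay on 18 chromosomes, with 5 each on chromosomes 5 and X and none on 13, 15, 18, 19, 21 or Y, although chromosome 19 held 640 of the expressed protein-coding genes (5.74%). No 2 members were neighbours. The closest pair, SLC26A9 and C4BPA on chromosome 1, lay 1160773 bases apart with 15 tested protein-coding genes between them. Gene length was similar, with a median of 32314 bases against 35074.5 bases for the other expressed genes.

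The nearest tested protein-coding gene on each side gave 96 neighbours. Of these, 11 (11.5%) were called lower and 6 (6.25%) higher, beside 5.77% and 10.6% of all protein-coding genes tested, with a median log2 fold change of -0.20. Some of those called lower belong to the family of the member, namely FGA beside FGB, SSX5 beside SSX1, MAGEC2 beside MAGEC1 and MMP7 beside MMP1. The other 7 were IGFBP4 beside TNS4 (-1.16 (SE 0.0816, adjusted p = 3.93e-08)), MCM5 beside HMOX1 (-1.10 (SE 0.0794, adjusted p = 4.97e-08)), RAB7B beside SLC26A9 (-2.38 (SE 0.171, adjusted p = 4.67e-08)), CLEC19A beside TMC5 (-2.44 (SE 0.636, adjusted p = 0.0046)), XRCC4 beside VCAN, MIX23 beside CSTA and SPANXA2 beside MAGEC1. MCM5, a replication licensing factor 5920 bases from HMOX1, was at 200.5 and 211 CPM in shCon and 98.9 and 105 CPM in shUBXN1. Others rose. SCN3B, 1413 bases from GRAMD1B, went up from 0.146 and 0.0411 CPM in shCon to 1.83 and 1.5 in shUBXN1, a log2 fold change of 3.96 (SE 0.61, adjusted p = 7.28e-05), and SEMA3C beside CACNA2D1 had 1.82 (SE 0.0792, adjusted p = 4.32e-10).

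Promoter windows (250 bases before to 50 after the first listed start) came from RefSeq (GRCh38.p14) and were found for 31 of the 48 members. Of the 31, 13 (41.9%) had at least 55% GC and a CpG ratio (observed over expected) of at least 0.6, against 77.6% of 9351 other expressed protein-coding genes and 44.2% of all 27305 promoters. Unlike the 11152 expressed genes above, those compared by promoter include symbols starting with ZNF, H1-, H2, H3 or H4. The median GC content was 59.0% against 65.3%, and the median CpG ratio 0.549 against 0.849. The range among members was wide. FGB had 32.7% GC and no CpG, whereas EBF3 had 78.7% GC. The windows of FGB and TMSB10 are shown as examples of both types, in the direction of the gene and with GC boxes (GGGCGG or its reverse complement) in capitals.
FGB (chr4:154562730-154563029, plus strand): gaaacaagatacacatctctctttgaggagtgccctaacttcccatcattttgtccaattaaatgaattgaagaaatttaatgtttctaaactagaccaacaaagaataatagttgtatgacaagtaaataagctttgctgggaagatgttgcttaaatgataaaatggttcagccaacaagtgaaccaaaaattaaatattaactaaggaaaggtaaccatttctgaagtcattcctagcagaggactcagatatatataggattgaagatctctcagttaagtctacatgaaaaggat
TMSB10 (chr2:84905406-84905705, plus strand): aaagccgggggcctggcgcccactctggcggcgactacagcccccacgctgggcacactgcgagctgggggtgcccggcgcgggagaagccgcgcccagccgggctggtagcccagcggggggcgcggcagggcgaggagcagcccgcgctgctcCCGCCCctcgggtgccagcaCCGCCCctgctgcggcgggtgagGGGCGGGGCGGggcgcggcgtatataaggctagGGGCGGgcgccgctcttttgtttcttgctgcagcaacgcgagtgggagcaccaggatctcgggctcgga
The FGB window held no GC box. That of TMSB10 held 5 such boxes, 2 of them overlapping, between 95 and 19 bases before the start, and 75.3% GC.

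The TATA box (TATAAA) was in 12.9% of member promoters, 5.42% of those of other expressed genes and 12% of all. Only these exact letters were searched, so near forms such as TATATAAG, which the windows of TMSB10 and TNC hold, were not counted. TATAAA was found in IL7R, ASB4, SLC26A9 and AQP3, whose windows are shown with TATAAA or its reverse complement in capitals.
IL7R (chr5:35856641-35856940, plus strand): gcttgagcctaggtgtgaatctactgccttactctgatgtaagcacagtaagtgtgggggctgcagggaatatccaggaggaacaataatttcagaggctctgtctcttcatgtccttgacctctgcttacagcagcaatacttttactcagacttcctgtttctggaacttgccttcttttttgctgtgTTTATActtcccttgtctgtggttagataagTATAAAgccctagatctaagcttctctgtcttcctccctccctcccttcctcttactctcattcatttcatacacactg
ASB4 (chr7:95485693-95485992, plus strand): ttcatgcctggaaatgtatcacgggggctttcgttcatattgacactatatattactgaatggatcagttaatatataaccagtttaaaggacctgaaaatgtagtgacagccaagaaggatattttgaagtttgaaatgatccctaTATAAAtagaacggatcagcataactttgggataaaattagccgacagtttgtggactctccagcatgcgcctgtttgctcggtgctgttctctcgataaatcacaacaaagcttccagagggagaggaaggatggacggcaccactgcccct
SLC26A9 (chr1:205943407-205943706, minus strand): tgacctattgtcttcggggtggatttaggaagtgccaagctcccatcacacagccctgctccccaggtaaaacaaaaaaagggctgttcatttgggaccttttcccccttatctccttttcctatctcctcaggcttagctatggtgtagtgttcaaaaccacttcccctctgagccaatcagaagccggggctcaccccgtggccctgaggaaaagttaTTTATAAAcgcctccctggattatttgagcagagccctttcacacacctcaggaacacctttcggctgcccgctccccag
AQP3 (chr9:33447544-33447843, minus strand): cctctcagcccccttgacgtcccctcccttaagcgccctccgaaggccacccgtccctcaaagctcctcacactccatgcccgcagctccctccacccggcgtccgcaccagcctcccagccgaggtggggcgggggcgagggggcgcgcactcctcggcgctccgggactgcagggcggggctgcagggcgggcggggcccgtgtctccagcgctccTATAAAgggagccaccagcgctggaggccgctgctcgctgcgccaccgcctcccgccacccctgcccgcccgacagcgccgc
On the strand of the gene the match began 29 bases before the start of IL7R, 28 before that of SLC26A9 and 32 before that of AQP3, which put these 3 close to each other in position, and 103 before that of ASB4. These are RefSeq starts, and those of IL7R and ASB4 lie inside the annotated gene, downstream of its first base. In IL7R and SLC26A9 a second match lay on the other strand. These shares and positions describe letters in a window.

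AGATAA, the GATA site, was in 12.9% of member promoters, 4.64% of those of other expressed genes and 10.5% of all. For the TATA box and the GATA site the members' share was near that of all promoters. The GC box was in 58.1% of member promoters, 71.1% of those of other expressed genes and 44.6% of all. CCAAT was in 25.8%, 36.9% and 35.7%, the AP-1 site TGANTCA in 6.45%, 4.40% and 7.76%, and GGAATG, the TEAD site, in 12.9%, 10.6% and 14.0%. A loose NF-kappaB pattern, GGG and CC with any bases at a set number of positions between them, was in 61.3%, 74.0% and 58.0%. This pattern fixes only G and C bases and can overlap a GC box, so its shares are not shares of promoters with an NF-kappaB site. No member window held the E-box CACGTG (10.4% and 7.43%) or the palindrome TGACGTCA (3.36% and 1.98%).

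Just inside the limit were AGR2, CSTA and STRADB with 19.6%, 19.6% and 19.8% left, and just outside it SPANXA2, RAB7B and A1CF with 20.3%, 20.3% and 20.5%. SPANXA2, a cancer-testis gene on the X chromosome that lies next to MAGEC1 among the genes tested, was at 38.8 and 43 CPM in shCon and 8.51 and 8.08 CPM in shUBXN1. Without the second shUBXN1 library, 42 of the 48 still met the limits, and CA9, CRYAB, DEFB1, MMP1, SFT2D3 and TMC5 did not. The same limits on level and fall were met by 8 genes that the rule leaves out, namely H2AC19, ZNF736 and 6 genes that are not protein-coding. Among those 6, LINC00261, a long non-coding RNA encoded next to FOXA2, kept 7.18%, and SSX8P, a pseudogene of the family of SSX1, kept 2.96%.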

How the data were processed

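Poly(A) RNA of MHCC97H cells was sequenced in 2 shCon and 2 shUBXN1 libraries, assigned by their titles. The authors made and deposited expected counts, that is estimated counts per gene, not normalized and partly not whole, with a length per gene. Per the labels, the submitters' processing notes name HISAT2 2.0.4, StringTie 1.3.0 and build GRCh37, whereas the study's methods name GRCh38. The table has no coordinates, and positions here come from GENCODE release 44 (GRCh38) by gene ID, which matched 61369 of 61541 IDs. The counting tool, its annotation and its use of strand are not given in the sources used here, so overlapping, antisense and near-identical genes are uncertain. Library totals were 27380508, 24305174, 23433826 and 23373700 counts.

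CPM was the deposited count over the library total, and TPM used the deposited lengths. Rounded counts were filtered with filterByExpr, scaled by TMM and tested with edgeR 4.0.16 (glmQLFit, glmQLFTest) under R 4.3.3, without a block. The study names limma on TPM, which was run as an alternative because the deposited values are counts. Following the study's thresholds, a call needed p under 0.05 before adjustment and a 2-fold difference, and adjusted p-values are Benjamini-Hochberg over 16863 genes. The script was tested on simulated data. SE is that of the log2 fold change, worked back from the test as the unsigned log2 fold change over the square root of the F statistic. The labels do not say that libraries of a group came from separate cultures, so p-values measure only the spread between these libraries. The chi-square per degree of freedom between the libraries of a group was 3.65 and 7.77, so neither pair held 1 library in 2 copies.

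The members, the gene lists and the motifs were chosen with earlier results of these data known, and the grouping by protein role after the members were seen. Named were UBXN1, the 12 members with the lowest share left, the 12 with the highest control CPM, members on a list or with at most 3 counts in both shUBXN1 libraries, the 3 genes on each side of the limit, relatives and neighbours that moved most (up to 3 a member), and the largest rise and fall of each list. The other genes named were chosen after their values were seen. Promoters are RefSeq windows (GRCh38.p14, first listed start of a gene). They were found by symbol for 31 members, and TNS4, SLPI, CDH6, GRAMD1B, GLIPR1, HMOX1, VSIG1, SLCO5A1, SLC7A2, NKD1, CRYAB, DEFB1, ITIH2, GPD1, MMP1, TMC5 and CSTA had no entry. Alternatives covered other limits, scaling, tools (DESeq2 1.42.0, limma 3.58.1), no filter, a replicate block and leaving out each library. Some results are not reported here.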

Additional observations from a re-analysis of the deposited data

How the results depend on the processing

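Of the 48 members, 48 were called lower in all alternative fits except limma on log2(TPM + 1) and DESeq2, each with 46. The pseudocount brought EBF3 and SLCO5A1 under a fold of 2, and DESeq2 did not call SFT2D3 and ZBTB22. The log2 fold change of DUSP6, -0.03 as reported, was 0.054 with total count scaling and 0.028 with limma on log2(TPM + 1). UBXN1 and the other named genes that were refitted kept their direction, and 50 of 220 named genes changed their call in some fit, 4 of them members. With limma on log2(TPM + 1), 524 genes were called lower in place of 1027, 43 in place of 67 listed genes, 7 in place of 16 relatives and 7 in place of 11 neighbours. At adjusted p under 0.05 with no fold threshold these counts were 4751, 159, 38 and 43. Total count scaling moved the median of all genes from 0.02 to 0.10 and left 829 lower calls. The set itself had 55 genes with CPM on TMM library sizes, 50 with TPM (43 shared), 65 and 35 with control floors of 1 and 5 CPM, 71 and 16 with limits of 25% and 10% of control, and 49 to 58 without 1 library. On the strand of the gene alone, 0 member promoters held the TEAD site in place of 4, and 4 held the TATA box as before. With any listed start of a gene, chosen after seeing the data, 4 held the TATA box (12.9% against 8.30% of other expressed genes).

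Same-numbered libraries did not deviate together over the genes tested (correlation 0.0393). With only 2 libraries a group, this value cannot exclude that the numbers pair libraries. With a replicate block 48 members, 1026 genes, 68 listed genes, 16 relatives and 11 neighbours were called lower, and UBXN1 had a log2 fold change of -2.03. With 2 libraries a group, low members such as TNS4, ASB4 and SLPI rest on 4 counts or fewer in shUBXN1.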
